A study of Mus musculus with 14 samples.

Results

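The epidermis genes are a list of 34 mouse genes whose products build the outer layer of the skin. They were taken by gene symbol, through the RefSeq identifiers that the tables give for each of their 23152 loci. A total of 33 of the 34 were found in every table, each as 1 locus, whereas *Flg*, which encodes filaggrin, matched no row and has no value here. The list was put together with the values of the spinal column libraries in view, so the difference between these libraries is given as a description and was not tested.

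The data are 11 poly-A RNA-seq libraries and the peaks of a TAF9B and an RNA POL2 ChIP, all from mice or mouse cells of the C57BL/6 background. The wild-type (WT) cultures came from the ES cell line JM8, and the *Taf9b* knockout (KO) cultures from the line Taf9b_BG10, which is 1 clone in which a *LacZ-Neo* cassette took the place of the coding exons. Each line was sequenced as undifferentiated ES cells and as embryoid bodies (EBs) at day 2, day 4 and day 6 of differentiation towards motor neurons with retinoic acid and SAG, an agonist of the hedgehog pathway. The tissue libraries are the lumbar spinal column (vertebrae, with the cord and the tissue attached to them) of newborn littermates labelled WT and KO, and the spinal cord alone of newborn WT mice. The KO mice were derived from the same KO ES cells. How many animals went into each tissue library was not given in the sources used here. ChIP was made on motor neuron EBs of a separate WT line, HBG3.

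Each condition is 1 library, so no difference below has a replicate check, and no error or p-value can be given. Levels are in FPKM (mapped fragments scaled to transcript length and to library size), which can be compared between genes. Read counts are not part of the tables, and the depth behind each value is unknown. In bulk tissue, fewer cells of a type and less RNA per cell cannot be told apart. *Taf9b* itself went against the labels in the cultures. It stood at 0.537 FPKM in the ES cells labelled WT and at 3.06 FPKM in those labelled KO, and at day 6 at 1.37 and 4.01 FPKM. In spinal column it was at 6.65 FPKM under the WT label and 3.31 FPKM under the KO label, and in WT spinal cord at 7.44 FPKM. The 10 neuronal marker genes were all more than 2-fold lower in the day 6 EBs labelled KO, with *Tubb3* at 561 and 41.3 FPKM. Every direction below therefore refers to the libraries as labelled.

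The epidermis is a layered epithelium that renews itself from its base. Basal keratinocytes, held to the basement membrane by hemidesmosomes, make the keratin pair K5 and K14 under the control of the transcription factor p63. Cells that leave the base switch to K1 and K10, tie themselves together with desmosomes, and finally crosslink loricrin, involucrin and other proteins into a cornified envelope that lipids seal and proteases shed. None of these layers belongs to the spinal cord, the vertebrae or a neural culture.

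The promoters of the members that reached the highest levels are printed before the values, because these genes lead the difference between the spinal column libraries and because the TAF9B and POL2 peaks bear on promoters. Promoter sequences were taken from RefSeq (build GRCm38.p6), where 22 of the 34 members had an entry. Shown are the 250 bases before the start site of the 5 members with an entry that were highest in the spinal column labelled KO, 5′ to 3′ on the strand of the gene. *Krtdap* lies on the plus strand at chr7:30787655-30787904, *Krt10* on the minus strand at chr11:99389365-99389614, *Lgals7* on the plus strand at chr7:28864136-28864385, *Asprv1* on the plus strand at chr6:86627924-86628173 and *Lor* on the minus strand at chr3:92083143-92083392. Capitals mark a TATA box (TATAAA), an AP-1 motif (TGANTCA) or a GC box (CCGCCC), read on both strands.
Krtdap: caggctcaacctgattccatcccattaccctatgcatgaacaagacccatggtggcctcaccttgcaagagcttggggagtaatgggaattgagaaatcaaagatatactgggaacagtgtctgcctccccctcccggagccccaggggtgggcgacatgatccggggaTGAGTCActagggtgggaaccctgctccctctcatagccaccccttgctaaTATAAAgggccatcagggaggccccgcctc
Krt10: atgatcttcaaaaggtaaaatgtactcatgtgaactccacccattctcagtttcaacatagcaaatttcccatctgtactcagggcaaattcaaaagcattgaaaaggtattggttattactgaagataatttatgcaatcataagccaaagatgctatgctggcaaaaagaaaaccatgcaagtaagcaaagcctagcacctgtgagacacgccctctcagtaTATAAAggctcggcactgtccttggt
Lgals7: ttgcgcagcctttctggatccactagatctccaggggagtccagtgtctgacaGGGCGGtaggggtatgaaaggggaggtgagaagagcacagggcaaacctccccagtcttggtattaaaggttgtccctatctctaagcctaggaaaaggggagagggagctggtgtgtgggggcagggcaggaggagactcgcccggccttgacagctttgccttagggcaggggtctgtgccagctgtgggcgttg
Asprv1: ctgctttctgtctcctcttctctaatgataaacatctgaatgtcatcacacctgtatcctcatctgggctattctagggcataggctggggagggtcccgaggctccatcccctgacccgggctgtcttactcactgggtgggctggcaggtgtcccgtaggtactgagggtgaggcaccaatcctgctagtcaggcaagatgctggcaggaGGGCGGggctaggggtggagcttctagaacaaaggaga
Lor: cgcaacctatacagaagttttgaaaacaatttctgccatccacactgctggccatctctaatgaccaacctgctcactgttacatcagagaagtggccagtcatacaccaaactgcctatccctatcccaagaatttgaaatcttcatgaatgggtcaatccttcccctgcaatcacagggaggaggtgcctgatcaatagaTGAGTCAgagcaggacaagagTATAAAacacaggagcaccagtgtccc
The first base of the TATA box lies 30 bases before the start of *Krtdap*, 26 before that of *Krt10* and 27 before that of *Lor*. An AP-1 motif starts 81 bases before the start of *Krtdap* and 48 before that of *Lor*. *Lgals7* and *Asprv1* hold a GC box instead, 197 and 38 bases before the start, and no motif searched overlaps another in these windows. Over windows of 250 bases before to 50 after the start, TATAAA was in 7 of the 22 member promoters (31.8%) and in 13.6% of all 32851 promoters. TGANTCA was in 5 of 22 (22.7%) against 7.81% of all, in *Lor*, *Ivl*, *Flg*, *Sbsn* and *Krtdap*. All 5 were placed here in the cornified envelope group, although *Sbsn* and *Krtdap* encode secreted proteins. CCGCCC was in 31.8% against 35.7%, GCCNNNGGC (AP-2) in 13.6% against 16.6%, TTGCNNAAT (C/EBP) in 4.55% against 2.4%, and AACCGGTT (Grainyhead) in 0 of 22 against 0.146%. These are matches of letters, described without a test.

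Most epidermis genes were at or under 1 FPKM in the spinal column labelled WT and above it in the one labelled KO, where 16 of 33 exceeded 10 FPKM. Their FPKM values summed to 55.5 in the former and to 1918 in the latter, which is 0.0107% and 0.252% of the summed FPKM of all loci. Only 12 of the 33 measured members exceeded 1 FPKM in the library labelled WT, 29 did in the library labelled KO, and 17 of these passed through the library labelled KO alone. The other 4, *Krt2*, *Krt77*, *Dsg3* and *Tgm3*, were at or under 1 FPKM in both. Past 2-fold, 28 of the 29 members above 1 FPKM were higher in the library labelled KO and 0 were lower. Of all 14194 genes above 1 FPKM, 9.07% were more than 2-fold higher and 8.51% more than 2-fold lower. Because the list was chosen with this contrast in view, and because 17 members passed the minimum through the library labelled KO, nothing is read from that count. Among the 12 members above 1 FPKM in both libraries, 11 were more than 2-fold higher in the one labelled KO, beside 6.38% of all 12916 such genes, and the same contrast chose the list, so this count too is a description. The median log2 ratio of the 29 members was 5.40, beside 0.06 for all genes. In what follows, folds are given only where the lower value is above 0.1 FPKM, since smaller values cannot be tied to a number of reads.

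**Figure D1:**
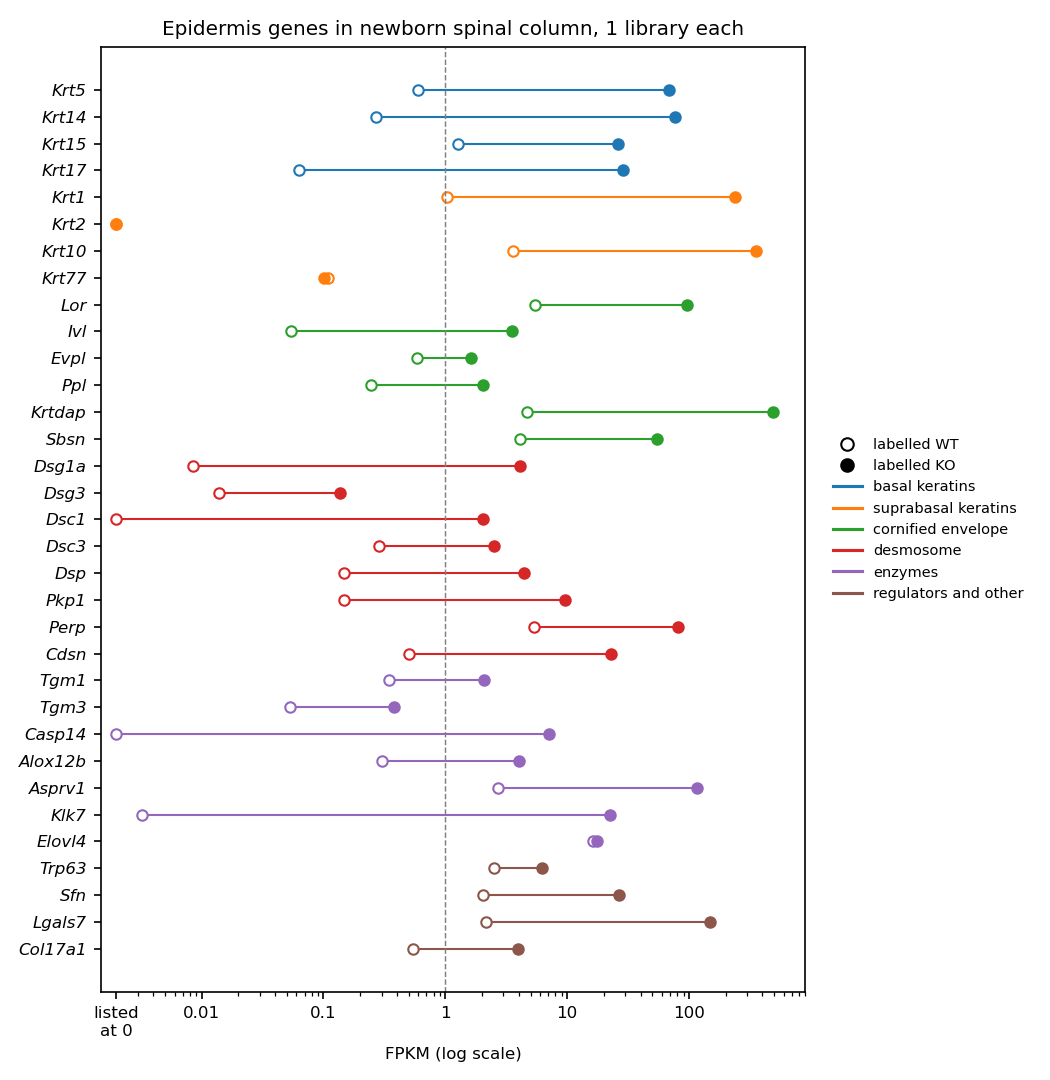
FPKM (log axis, values of 0 drawn at the left edge) of the 33 measured epidermis genes in newborn spinal column, grouped by role, with open circles for the library labelled WT and filled circles for the library labelled KO. Of the 33 genes, 29 lie above 1 FPKM (dashed line) in the library labelled KO and 12 in the one labelled WT. *Krt2*, *Krt77* and *Elovl4* show little or no gap.

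All basal keratins measured were higher in the library labelled KO. *Krt14* (mm9 chr11:100064476-100068824), the type I keratin of basal cells, was at 0.272 FPKM under the WT label and 77.3 FPKM under the KO label, a 285-fold difference. Its type II partner *Krt5* (chr15:101537501-101543322) was at 0.599 and 68.8 FPKM, 115-fold. *Krt15*, a keratin of basal cells and of the hair follicle bulge, was at 1.27 and 26.2 FPKM, 20.6-fold. The stress and hair follicle keratin *Krt17* was at 0.0633 and 28.8 FPKM. In WT spinal cord these 4 genes lay between 0 (*Krt15*) and 0.336 FPKM (*Krt14*), so in tissue only the library labelled KO held all of them above 1 FPKM. *Krt14*, *Krt17* and the related *Krt16* are similar in sequence, as are *Krt5* and the *Krt6* genes, and how shared reads were divided was not given in the sources used here.

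The suprabasal keratins split into a pair that was very high and a pair that was not detected above 1 FPKM anywhere. *Krt10* (chr11:99246569-99250678), the keratin of cells that have left the base, measured 3.60 FPKM under the WT label and 352 FPKM under the KO label, 97.8-fold. Its partner *Krt1* (chr15:101675857-101681217) was at 1.04 and 238 FPKM, 230-fold. Both were also above 1 FPKM in WT spinal cord, at 5.18 and 3.59 FPKM, which is more than in the spinal column labelled WT. *Krt2*, the keratin of the uppermost living layers of thick or older epidermis, was listed at 0 in both spinal column libraries and reached 0.0397 FPKM at most, in spinal cord. *Krt77*, a type II keratin of skin and eccrine ducts, was at 0.110 FPKM under the WT label and 0.911 times that under the KO label. *Krt10* exceeded *Krt14* 4.56-fold in the library labelled KO and 13.3-fold in the one labelled WT.

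The highest member of the list was a gene of the cornifying layers. *Krtdap* (chr7:31572924-31576102), a small secreted protein of differentiating keratinocytes, measured 4.69 FPKM under the WT label and 487 FPKM under the KO label, 104-fold. *Sbsn*, its neighbour on chromosome 7 and a secreted protein of the upper layers, was at 4.11 and 54.1 FPKM, 13.2-fold. Loricrin (*Lor*, chr3:91884193-91887064), the bulk protein of the envelope, was at 5.46 and 97.0 FPKM, 17.8-fold, and stood at 16.8 FPKM in WT spinal cord. Involucrin (*Ivl*), an early envelope scaffold, was at 0.0545 and 3.53 FPKM. The plakins that link the envelope to keratin showed smaller ratios, with *Ppl* (periplakin) at 0.246 and 2.02 FPKM, 8.22-fold. *Evpl* (envoplakin) was at 0.587 and 1.64 FPKM, 2.79-fold. *Lor* was 0.275 times *Krt10* in the library labelled KO and 1.52 times in the one labelled WT, whereas *Krtdap* was 1.38 and 1.30 times *Krt10*.

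The desmosome genes, whose products rivet keratinocytes to each other, included 7 of 8 above 1 FPKM, and 6 of the 7 passed that minimum under the KO label alone, so their values are given as a description. *Perp*, a membrane protein that desmosomes need and a p63 target, was at 5.34 FPKM under the WT label and 81.2 FPKM under the KO label, 15.2-fold. Corneodesmosin (*Cdsn*), the glue of the outermost junctions, was at 0.503 and 22.9 FPKM, 45.6-fold, and plakophilin 1 (*Pkp1*) at 0.147 and 9.57 FPKM, 65.1-fold. Desmoplakin (*Dsp*), which anchors keratin to every desmosome, was at 0.149 and 4.39 FPKM, 29.5-fold. The cadherins of the suprabasal layers followed, with *Dsg1a* at 0.00845 and 4.08 FPKM and *Dsc1* listed at 0 under the WT label and at 2.05 FPKM under the KO label. *Dsg1a* has near-identical copies (*Dsg1b* and *Dsg1c*), so its level is uncertain. Of the cadherins of the lower layers, *Dsc3* was at 0.284 and 2.51 FPKM, 8.85-fold, and *Dsg3* at 0.0139 and 0.138 FPKM, under the minimum.

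Among the enzymes, proteases of the outer layers stood out and 1 lipid enzyme did not move. The skin aspartic protease *Asprv1*, which processes filaggrin, was at 2.72 FPKM under the WT label and 115 FPKM under the KO label, 42.3-fold. The kallikrein *Klk7*, which cuts corneodesmosomes so that dead cells can be shed, was at 0.00323 and 22.6 FPKM. *Casp14*, a caspase of the cornifying layers, was listed at 0 under the WT label against 7.10 FPKM under the KO label. The lipoxygenase *Alox12b*, needed for the lipid envelope, was at 0.299 and 4.06 FPKM, 13.6-fold. Transglutaminase 1 (*Tgm1*), which crosslinks the envelope, was at 0.344 and 2.09 FPKM, 6.07-fold, and *Tgm3* at 0.0529 and 0.378 FPKM. *Elovl4*, which elongates very long fatty acids in skin but also in retina and brain, was at 16.2 and 17.6 FPKM (log2 ratio 0.12) and was highest in WT spinal cord, at 36.5 FPKM.

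The remaining members are a regulator, a signalling adaptor, a lectin and a basement membrane anchor. *Trp63* (chr16:25683851-25892174), which encodes p63, had the smallest ratio among the members past 2-fold, at 2.51 FPKM under the WT label and 6.20 FPKM under the KO label, 2.47-fold. In WT spinal cord it was at 0.0593 FPKM. *Lgals7*, a galectin of stratified epithelia, was at 2.18 and 148 FPKM, 68.0-fold. *Sfn*, the 14-3-3 protein sigma of differentiating keratinocytes, was at 2.04 and 26.7 FPKM, 13.1-fold. *Col17a1*, the collagen of hemidesmosomes, was at 0.538 and 3.94 FPKM, 7.33-fold.

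The order of the members was partly kept between the spinal column libraries, with a Spearman's rho of 0.66 over 33 members. The spinal column labelled WT was more like spinal cord, with a rho of 0.78. Both are descriptions across genes, which are not independent replicates. In 22 of the 33 members the spinal column labelled KO was the highest of all 11 libraries. The share of all genes was not computed for this count. The list was made with the values of this library in view, so nothing is read from it. In the spinal column labelled KO *Krt14* exceeded its next highest level 157-fold and *Krtdap* 104-fold.

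**Figure D2:**
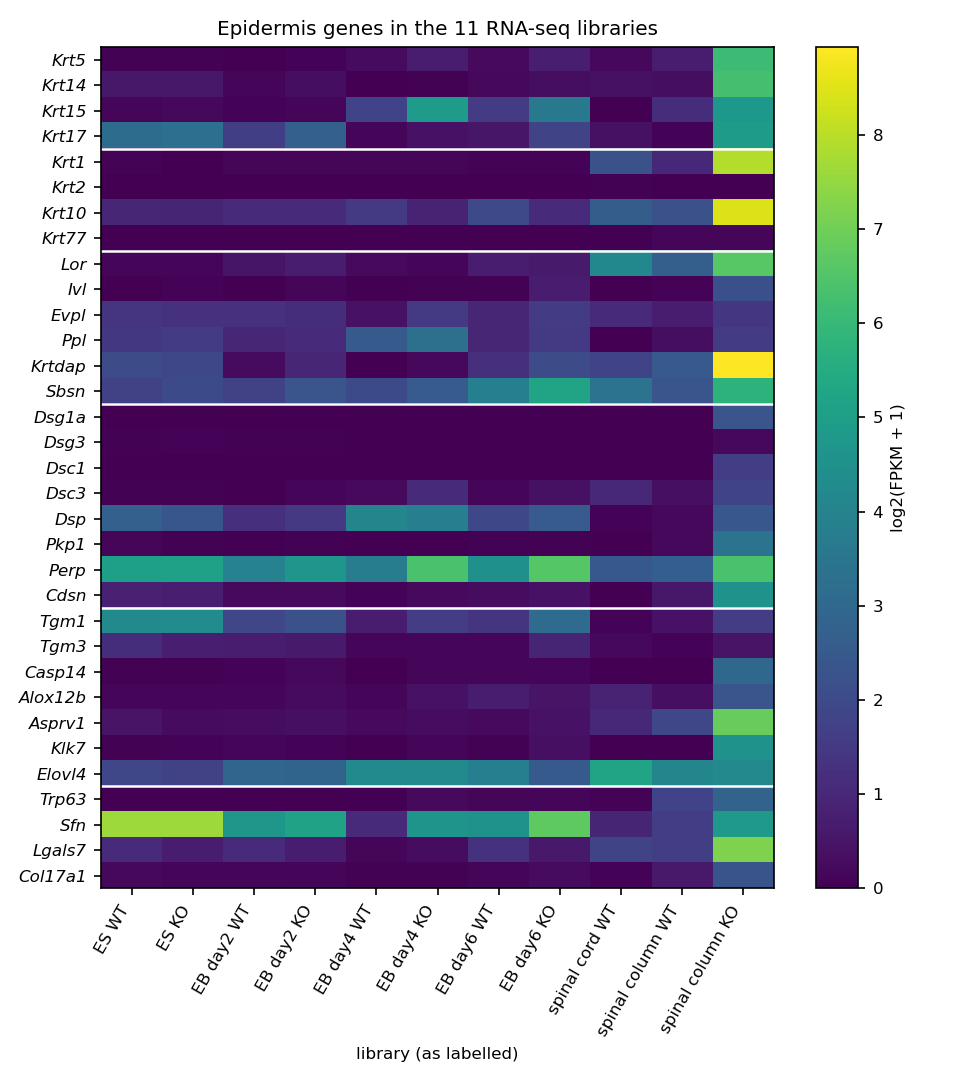
Colour shows log2(FPKM + 1) of the 33 measured epidermis genes (rows, grouped by role between white lines) in the 11 RNA-seq libraries (columns). The column at the right, the spinal column labelled KO, is above 10 FPKM in 16 of the 33 rows and dark in others such as *Krt2*, *Krt77*, *Dsg3* and *Tgm3*, whereas in the cultures the rows that reach 10 FPKM are *Sfn*, *Perp*, *Sbsn*, *Krt15*, *Tgm1*, *Elovl4* and *Dsp*.

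Transcript length moved with the spinal column ratio of all genes. Between the libraries labelled KO and WT, the Spearman's rho of the log2 ratio with the longest coding transcript was -0.60 across 12029 genes, and the median log2 ratio fell over 10 length classes of equal size, from 0.82 in the shortest to -0.77 in the longest. For the EBs at day 4 and day 6 this rho was 0.04 and 0.04, and for WT spinal column over spinal cord -0.10. Members ran from 456 nt (*Krtdap*) to 9538 nt (*Dsp*). Over the 30 members with a ratio, the rho of the spinal column log2 ratio with length was -0.50. The 8 members longer than 4000 nt and above 1 FPKM were more than 2-fold higher in the library labelled KO, but 7 of them passed the minimum through that library alone, so nothing is read from their count. With the median of the same length class subtracted, an alternative added after the data were seen, the members' median log2 ratio was 5.27 and 28 were past 2-fold. Of these 28, 17 passed the minimum through the library labelled KO alone, so nothing is read from this count either. With the length trend removed, the log2 ratio of *Dsp* went from 4.88 to 5.65 and that of *Krtdap* from 6.70 to 5.88. The part of length or RNA quality in the result beyond this was not tested.

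**Figure D3:**
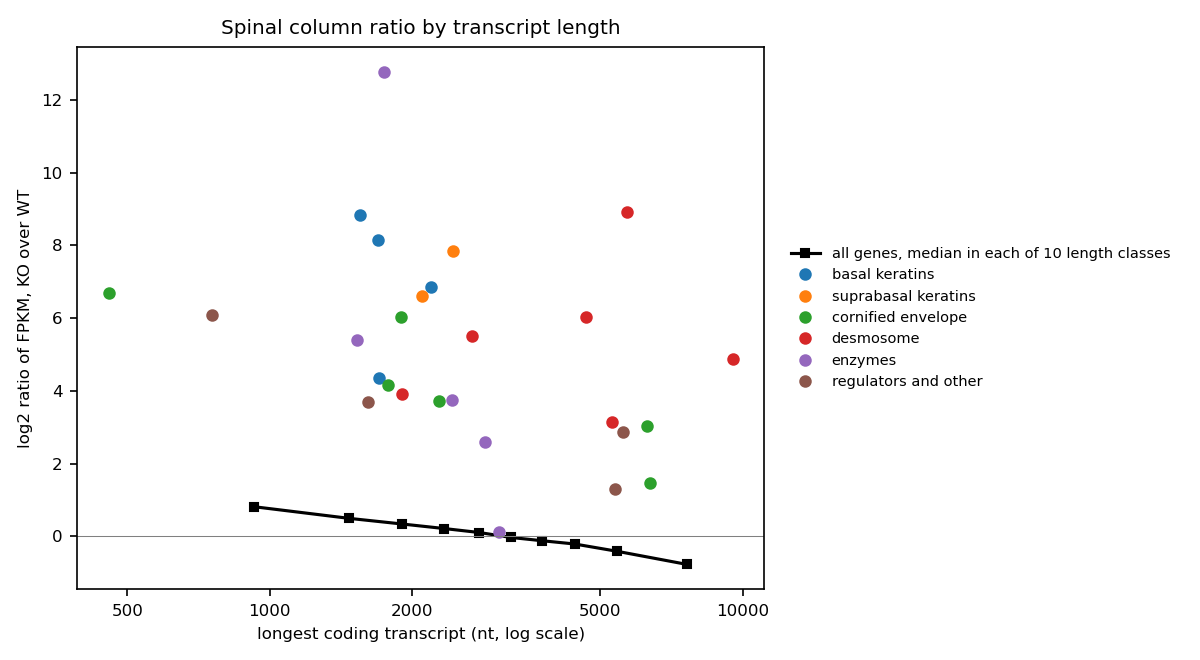
Log2 ratio of FPKM in spinal column, labelled KO over labelled WT, against transcript length (log axis) for the members above 1 FPKM that have a ratio, coloured by role. Black squares give the median of all genes in each of 10 length classes, from 0.82 to -0.77, and *Elovl4* lies next to them while all other members lie higher.

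Other genes of the epidermal program, from 4 lists that hold no member, were described in the same way. Of 21 further cornified envelope genes, all 21 passed the minimum of 1 FPKM and 20 were more than 2-fold higher under the KO label, at a median log2 ratio of 6.12, beside the 9.07% of all genes. Of the 21, 15 passed the minimum under the KO label alone, so nothing is read from the count. *Lce1a1*, a late envelope protein, was listed at 0 under the WT label against 146 FPKM under the KO label. *Dmkn* was at 1.59 and 177 FPKM and *Ly6d* at 2.32 and 161 FPKM. The lowest ratio was that of *Krt80*, at 2.90 and 4.76 FPKM. The *Lce1* genes are close copies of each other, so the level of each is uncertain.

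The other 3 lists were smaller in median log2 ratio, at 1.38, 1.69 and 0.68 among the genes above 1 FPKM, and these differences between lists were not tested. With no minimum the medians were 4.55 for barrier lipids and proteases, 2.12 for regulators and 0.49 for hemidesmosome and wound keratin genes. Of 10 genes for barrier lipids and proteases 7 were above 1 FPKM, and 5 of these were more than 2-fold higher and 0 lower (3 of the 6 with a known length once the length trend was removed). Of the 5, 4 passed the minimum under the KO label alone, as did 3 of the 5 higher regulators and 3 of the 4 higher hemidesmosome and wound keratin genes described next, so little is read from these counts. They ran from the ceramide synthase *Cers3*, at 0.0542 and 2.07 FPKM, to *Abhd5*, at 9.56 and 13.6 FPKM. Of 10 regulators 8 were above 1 FPKM and 5 were more than 2-fold higher, from *Ripk4*, whose values were 0.0236 and 1.01 FPKM, to *Klf4*, whose values were 14.8 and 18.3 FPKM. Hemidesmosome and wound keratin genes were mixed, with 4 of 10 more than 2-fold higher and 2 lower. *Krt16* was at 0.148 and 13.5 FPKM, whereas the long genes *Dst* and *Plec* were at 9.39 and 2.28 FPKM and at 34.4 and 13.1 FPKM. With the length trend removed, 5 of these 10 hemidesmosome and wound keratin genes were higher and 1 lower.

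Markers of other cell types of skin and of the tissue around it were set beside the same share of all genes, 9.07% more than 2-fold higher and 8.51% lower, and for several the call depended on the length trend. Hair follicle genes were more than 2-fold higher in 7 of 8 above 1 FPKM, as for *Krt71* at 0.149 and 6.08 FPKM, with *Hoxc13* the exception at 5.93 and 4.15 FPKM. All 7 passed the minimum under the KO label alone, so nothing is read from that count. Melanocyte genes were past 2-fold in 4 of 6, all 4 of which also passed the minimum under the KO label alone, with values from *Mlana* at 0.285 and 2.52 FPKM to *Tyrp1* at 2.76 and 2.23 FPKM. All 4 mast cell genes were higher, from *Cma1* at 21.8 and 73.7 FPKM to *Cpa3* at 23.8 and 55.4 FPKM, but with the length trend removed 0 of 4 were past 2-fold. The Langerhans cell marker *Cd207* was listed at 0 in both. Fat cell genes were past 2-fold in 5 of 6, of which 4 passed the minimum under the KO label alone, with *Cfd* at 0.682 and 20.5 FPKM and *Car3* at 865 and 962 FPKM, and in 4 with the length trend removed. Dermal fibroblast genes were higher in 2 of 8, *Dpt* (30.3 and 73.1 FPKM) and *Lum* (34.4 and 77.6 FPKM), with *Col1a1* the lowest ratio, at 1423 and 753 FPKM. With the length trend removed 0 of these 8 were past 2-fold. Simple epithelial keratins were higher in 4 of 5, of which 1 passed the minimum under the KO label alone, with *Krt8* at 2.09 and 8.24 FPKM.

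Of 6 markers of a moist stratified lining 3 were above 1 FPKM, all under the WT label alone, so nothing is read from their direction. *Krt4* and *Krt13*, the keratin pair of oesophagus and mouth, stood at 1.71 and 1.92 FPKM under the WT label and were listed at 0 under the KO label, and *Sprr3* was at 1.87 and 0.0959 FPKM. All 3 were listed at 0 in WT spinal cord. Neuronal genes were more than 2-fold lower in 5 of 9 above 1 FPKM and higher in 0, from *Map1b* at 70.1 and 12.3 FPKM to *Slc18a3* at 6.50 and 4.78 FPKM. Cartilage and bone genes and 4 muscle genes with a valid status crossed 2-fold in 0 of 7 and 0 of 4. Glial genes did so in 0 of 6. Neutrophil genes were higher in 4 of 6, as for *S100a8* at 406 and 855 FPKM, but in 1 of 6 with the length trend removed. Of the 4 neutrophil genes, 1 passed the minimum under the KO label alone. Past 2-fold were also erythroid genes in 1 of 3 and broadly used epithelial junction genes in 4 of 8, as for *Cldn4* at 0.0629 and 3.27 FPKM. Each of these passed the minimum under the KO label alone, and nothing is read from their counts. Whether the tissue pieces differed in attached skin was not tested, and with 1 library per side the dissection and the genotype cannot be told apart.

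**Figure D4:**
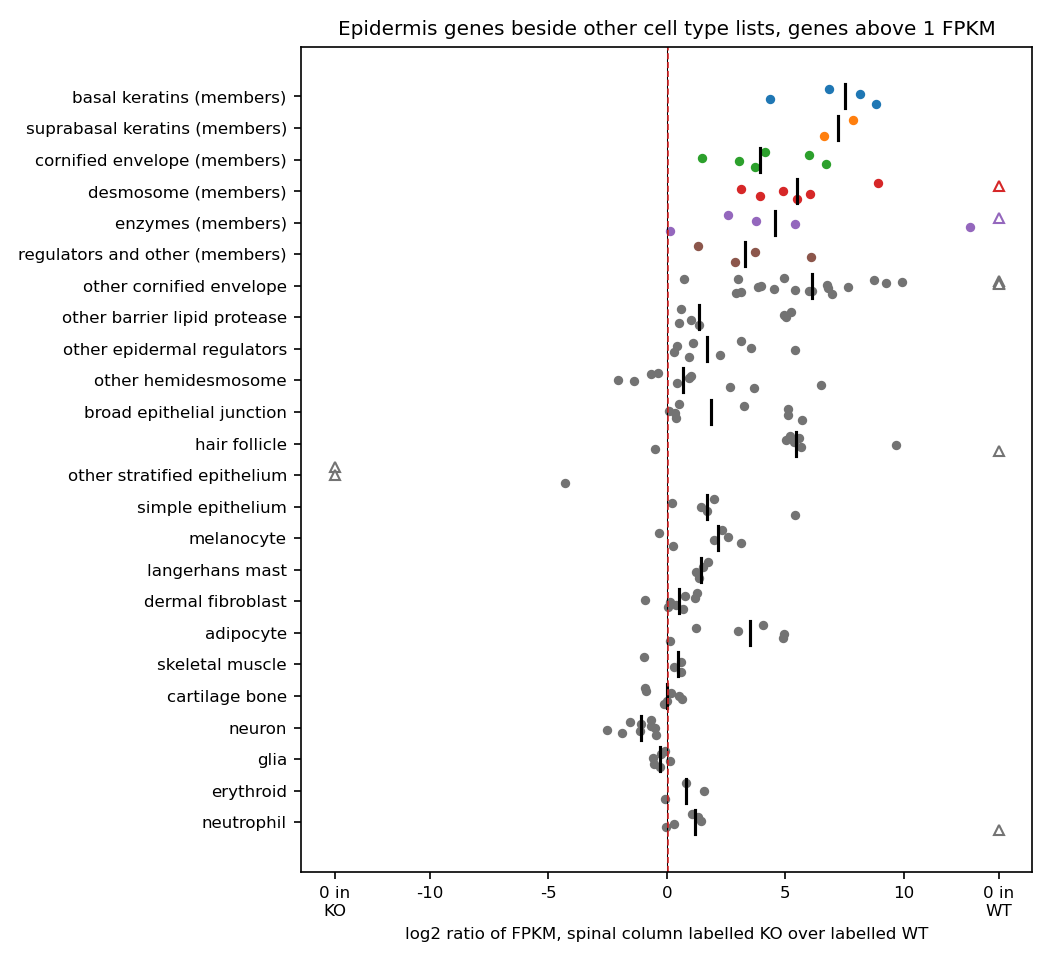
Log2 ratio of FPKM in spinal column, labelled KO over labelled WT, for the genes above 1 FPKM of each member role (coloured) and of the other lists (grey). Black bars are list medians (none where the median gene is listed at 0), open triangles genes listed at 0 in 1 library, and the red dashed line the median of all genes at 0.06. The member roles have medians between 3.29 and 7.50, and the neuronal genes a median of -1.07.

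WT spinal cord alone was set against the spinal column labelled WT. The members summed to 87.0 FPKM in spinal cord, of which *Elovl4* made up 36.5 and *Lor* 16.8. Between these libraries 4 of the 13 members above 1 FPKM were more than 2-fold higher in spinal column and 4 lower, while 17.3% and 16% of all 14111 genes above 1 FPKM were. Higher in spinal column were *Krt15* (listed at 0 in cord), *Asprv1* (0.986 FPKM in cord), *Trp63* and *Sfn* (0.902 FPKM in cord), all 4 above the minimum in spinal column alone. Lower were *Krt1*, *Lor*, *Sbsn* (9.44 FPKM in cord) and *Elovl4*. Their median log2 ratio was -0.22, beside -0.07 for all genes. Its direction depended on the minimum, since it was 1.18 over all measured members with no filter and -1.17 above 5 FPKM. Set against the same spinal cord library, the spinal column labelled KO had 27 of 29 members more than 2-fold higher and 1 lower, *Elovl4*, while 26.6% and 23.3% of all genes were. Of these members 20 passed the minimum through the spinal column labelled KO alone, whose values were in view when the list was made, so nothing is read from the count. The libraries of cord and column were normalized in separate tables.

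In the cultures only a part of the list was expressed. Of the 33 measured members, 18 stayed at or under 1 FPKM in all 8 culture libraries, among them *Krt5*, *Krt14*, *Krt1*, *Lor*, *Ivl*, *Dsg1a*, *Klk7* and *Trp63*. The share of all genes that stayed so low was not computed, so this count is only a description. ES cells held the highest *Sfn* of all, at 195 FPKM under the WT label and 196 FPKM under the KO label, together with *Perp* (31.7 and 33.9 FPKM), *Tgm1* (18.5 and 18.9 FPKM) and *Krt17* (8.00 and 8.54 FPKM). In ES cells 0 of 12 members above 1 FPKM differed more than 2-fold, where 0.541% of all genes were higher and 0.591% lower. At day 2 only *Krt17* did, at 2.15 FPKM in EBs labelled WT and 5.75 FPKM in EBs labelled KO, where 1.19% of all genes were higher and 1.4% lower.

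At day 4 and day 6 several of these genes were higher in the EBs labelled KO. At day 4, 6 of 11 members above 1 FPKM were more than 2-fold higher and 1 was lower, against 12.1% and 4.43% of all 12543 genes. At day 6 the counts were 8 and 3 of 13, against 10.5% and 9.93% of all 12985 genes. Of the higher members 3 of 6 at day 4 and 2 of 8 at day 6 passed the minimum under the KO label alone, and 1 lower member at each day passed it under the WT label alone. The members' median log2 ratio was 1.82 at day 4 and 1.32 at day 6, beside -0.03 and -0.00308 for all genes.

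*Sfn* fell from ES cells to 1.10 FPKM in day 4 EBs labelled WT but stood at 23.5 FPKM in those labelled KO, 21.3-fold, and at day 6 at 22.3 and 104 FPKM, 4.68-fold. *Perp* was at 12.8 and 81.4 FPKM at day 4 and at 21.5 and 95.1 FPKM at day 6, beside 81.2 FPKM in the spinal column labelled KO. *Krt15*, at most 0.136 FPKM in ES cells, was at 2.52 and 29.6 FPKM at day 4 and at 1.93 and 11.2 FPKM at day 6. All 3 were higher in the EBs labelled KO at both days.

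Of the other members past 2-fold, *Sbsn* was the highest in level. *Tgm1* was at 0.594 and 2.09 FPKM at day 4 and at 1.59 and 7.80 FPKM at day 6. *Evpl* was at 0.359 and 1.85 FPKM at day 4 and at 0.925 and 2.02 FPKM at day 6. *Dsc3* passed at day 4 alone, at 0.176 and 1.11 FPKM. At day 6 *Sbsn* was at 13.4 and 36.4 FPKM, *Krt17* at 0.454 and 2.58 FPKM and *Krtdap* at 1.31 and 3.27 FPKM. *Dsp* and *Ppl* stayed within 2-fold at both days, with *Dsp* at 15.7 and 13.0 FPKM and *Ppl* at 4.74 and 8.89 FPKM at day 4.

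Past 2-fold and lower in the EBs labelled KO were 3 members, of which only *Elovl4* stayed past 2-fold at day 6 with 1 FPKM added to both values. *Krt10* was at 1.87 and 0.865 FPKM at day 4 and at 2.91 and 1.15 FPKM at day 6. *Elovl4* was alike at day 4, at 18.5 and 17.7 FPKM, and apart at day 6, at 13.6 and 4.72 FPKM. *Lgals7* was at 1.39 and 0.538 FPKM at day 6. Thus *Krt10* and *Lgals7*, among the highest members in the spinal column labelled KO, were with *Elovl4* the members lower at day 6 in the EBs with that label. At day 4 *Lgals7* was under the minimum, at 0.113 and 0.237 FPKM. *Trp63* was at 0.0890 and 0.105 FPKM at day 6.

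Genes of the other lists moved at day 6 as well. The simple epithelial keratins *Krt8* and *Krt18*, which are not members, were at 47.2 and 441 FPKM and at 60.4 and 484 FPKM, and *Cldn4*, a tight junction gene of simple epithelia, at 123 and 399.7 FPKM. Of 10 epidermal regulators 6 of 9 above 1 FPKM were more than 2-fold higher and 0 lower, as for *Grhl3* at 3.66 and 11.8 FPKM, beside the 10.5% and 9.93% of all genes. With the length trend removed, 5 of the 7 with a known length were higher. In ES cells labelled WT 7 of the 10 regulators were above 1 FPKM, with *Klf4* at 99.4, *Tfap2c* at 42.1 and *Grhl3* at 5.86 FPKM. Of 10 genes for barrier lipids and proteases only 3 exceeded 1 FPKM, with 1 higher and 1 lower. The lower one was the fatty acid binding protein gene *Fabp5*, at 497 and 61.6 FPKM. Of 11 hemidesmosome and wound keratin genes 8 exceeded 1 FPKM, and 5 were higher and 0 lower, 3 of them above the minimum under the KO label alone. Only 3 of the 21 further cornified envelope genes exceeded 1 FPKM, the highest being *Dmkn* at 0.784 and 5.65 FPKM. The part of simple epithelium in the members' values at day 6 was not tested.

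**Figure D5:**
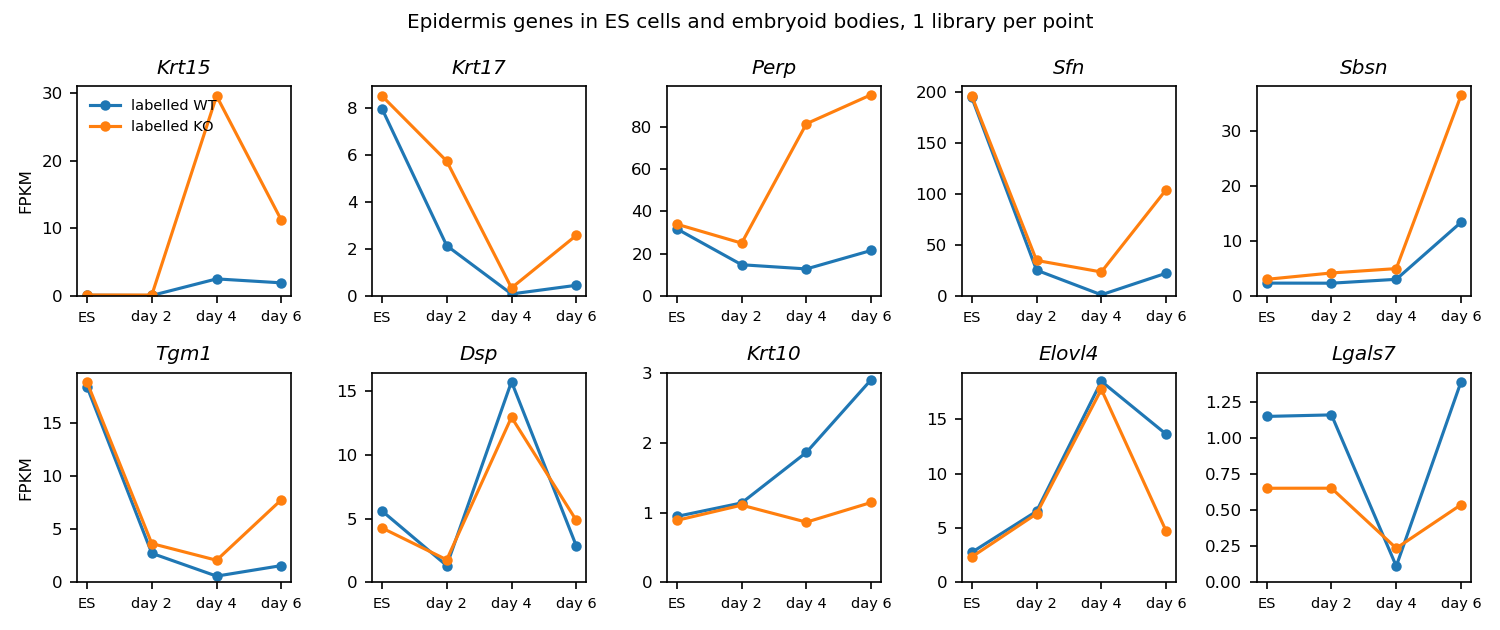
FPKM of 10 epidermis genes in ES cells and in EBs at day 2, day 4 and day 6, with blue for libraries labelled WT and orange for libraries labelled KO, 1 library per point and a separate axis from 0 for each gene. *Krt15*, *Perp*, *Sfn* and *Tgm1* are higher in orange at day 4 and day 6, and *Krt10* and *Elovl4* are lower in orange at day 6.

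No TAF9B peak was listed at the start of an epidermis gene in motor neuron EBs. Of 33 members with an annotated start site, 0 had the midpoint of a TAF9B peak within 500 bp of one, while 20.2% of all 18987 genes did. For genes at or under 1 FPKM in both day 6 libraries, which 20 of the members are, the share of all genes was 5.69%, and for genes above it 30.2%. The EBs used for ChIP were of another line and, per the study's methods, differentiated for longer than the day 6 EBs, so peaks and expression were matched neither in line nor in time. *Elovl4* alone had a POL2 peak there (chr9:83699375-83699955 of mm9, MACS score 217), against 33.1% of all genes. By day 6 level, a POL2 peak was at 0 of the 20 members at or under 1 FPKM, beside 4.04% of all such genes. Above 1 FPKM it was at 1 of 13 members, beside 53.1%. The nearest TAF9B peaks lay 1024 bp from a start of *Elovl4*, 1306 bp from *Lor* and 2268 bp from *Sfn*. A list of peaks above a threshold gives no level where there is no peak, and ChIP of spinal column was not analysed here.

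The genes outside the epidermal lists whose pattern over the 11 libraries was most like the members' mean level were also high in the spinal column labelled KO. By Pearson's r of log2(FPKM + 1) over 12350 genes above 5 FPKM in at least 1 library, the 10 nearest had an r between 0.98 and 0.99. They were *S100a14*, *Krt23*, *Pla2g2f*, *Serpinb5*, *Krt79*, *Trex2*, *Prr9*, *Crct1*, *Lce1h* and *Klk9*. *S100a14* was at 0.251 and 25.4 FPKM in the spinal column libraries labelled WT and KO, and *Crct1* at 0.319 and 96.5 FPKM. In so few libraries a pattern with 1 high value sets r almost by itself, so these values describe that library.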

How the data were processed

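RNA-seq covered 11 libraries in 6 tables. The authors deposited FPKM values, which they made from poly-A reads mapped to RefSeq genes with TopHat and summarised with Cuffdiff. Columns of the authors' own fold changes, test statistics and p-values were not used. Peaks carry the MACS score as deposited, from reads that were aligned to mm9 by Bowtie. Tool versions were not given in the sources used here. The data give no read counts.

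Symbols came from RefSeq identifiers (22766 of 23152 loci matched). Coordinates are mm9, 1-based. Log2 ratios were made without a pseudocount for genes that exceeded 1 FPKM in either library compared, and called past 2-fold. A gene listed at 0 in 1 library counted as past it. Loci that Cuffdiff marked as too abundant or failed were left out (71 in spinal column). With 1 library per condition no test was made. Start sites within a gene's locus came from GENCODE M1 (mm9), in place of the RefSeq starts planned. Transcript lengths are the longest coding transcript there.

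The members and lists were chosen with earlier results of these data known. Named are all members, *Taf9b*, the highest, lowest and defining genes of each list, and the 10 genes of most similar pattern. The other genes named were chosen after their values were seen. Alternatives were a pseudocount, other minimums and folds, centring and a length correction. The code of the calls was run on simulated 4-fold changes of genes well above the minimum. That run checks the code only and gives no error rate for members at low values. Values were computed with pandas 2.3.3 and scipy 1.17.1, and figures drawn with matplotlib 3.10.9, in Python 3.11.15.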

Additional observations from a re-analysis of the deposited data

Results flagged for a closer look

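By their labels, *Krt10* at day 4 and day 6 and *Lgals7* at day 6 moved in opposite directions in tissue and culture. In spinal column both were more than 2-fold higher in the library labelled KO, by 6.61 and 6.09 on the log2 scale. In the EBs labelled KO *Krt10* was lower, with a log2 ratio of -1.11 at day 4 and -1.34 at day 6, and *Lgals7* was lower at day 6, with a log2 ratio of -1.37. At day 4 *Lgals7* was at 0.113 and 0.237 FPKM, under the minimum and higher under the KO label. The directions in culture rest on labels that the *Taf9b* values there went against. With 1 library per side the difference between tissue and culture was not tested. With 1 FPKM added to both values, *Krt10* was at -0.62 and -0.86 and *Lgals7* at -0.64, no longer past 2-fold. The values in culture are low, at most 2.91 FPKM for *Krt10* and 1.39 FPKM for *Lgals7*.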

How the results depend on the processing

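In spinal column the members' median kept its direction under every alternative run, and its size depended on how low values were treated. Since the list was made with these values in view, the kept direction is no check of the result. The median log2 ratio was 3.20 with 1 FPKM added to both values, 4.63 with no filter and 6.03 above 5 FPKM, where 18 members were past 2-fold. At day 4 of the EBs, adding 1 FPKM gave a median of 0.84 and 0 members lower. With no filter 19 members were higher, above 5 FPKM 3 were higher and 0 lower, and at 4-fold 0 were lower. At day 6, adding 1 FPKM left 1 member lower, and with no filter 16 were higher. Above 5 FPKM the median was 2.19 with 5 higher and 1 lower, and at 4-fold 5 were higher and 0 lower. For WT spinal column over spinal cord the direction was not stable: the median was 1.18 with no filter, where 16 were higher and 9 lower, and -1.17 above 5 FPKM, where 0 were higher. There, adding 1 FPKM left 2 higher, and at 4-fold 2 were higher and 0 lower. Widening the distance to 5000 bp gave 3 members with a TAF9B peak and 2 with a POL2 peak. Of the 80 values under an alternative, 53 stayed within 1.5-fold of the reported one. The length correction and the centring moved no median and no count of the members by over 1.5 times in the 4 comparisons above, while the length correction moved the spinal column counts of some other lists, as given beside them. No paired analysis was possible because each condition is 1 library and the labels give no replicate numbers. The depth is unknown, so no limit of detection can be given for members at or near 0.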

Other observations

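Ratios between members were kept for some pairs of genes and not for others across the spinal column libraries. *Krtdap* was 1.30 times *Krt10* under the WT label and 1.38 times under the KO label, while *Krt1* was 1.73 and 3.46 times *Krt5*. With the length trend removed, the log2 ratios of *Krtdap* and *Krt10* were 5.88 and 6.27. *Krt10* over *Krt14* moved the other way from *Krt1* over *Krt5*, at 13.3 and 4.56 times. Under the WT label *Krt5* and *Krt14* were under the minimum, at 0.599 and 0.272 FPKM. In WT spinal cord *Krt1* was 24.5 times *Krt5*, and *Lor* was 3.25 times *Krt10*. Suprabasal and envelope transcripts were thus detected in cord where both basal keratins were at 0.336 FPKM or less.

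By role, the cornified envelope genes had the highest summed FPKM in the spinal column labelled KO, at 645 FPKM, followed by the suprabasal keratins at 591 FPKM and the basal keratins at 201 FPKM. Of the 645 FPKM, *Krtdap* made up 487, so the first rank of this role rests on 1 gene. *Krtdap* encodes a secreted protein and is the shortest member, at 456 nt. In the library labelled WT the same roles summed to 15.1, 4.75 and 2.20 FPKM. The enzymes were highest there at 19.7 FPKM, with *Elovl4* at 16.2 FPKM. Regulators and other members summed to 7.27 FPKM and desmosome genes to 6.45 FPKM.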
